A study of Mus musculus with 4 samples.

Results

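The genes described here were 8 regulators of the Myc network and of the Lin28 and let-7 axis, chosen by symbol out of the 22718 genes measured in mouse embryonic stem (ES) cells. They were Myc, Mycn, Max, Mga, Mxi1, Lin28a, Lin28b and Trim71. The symbol in the expression data matched directly for 7 of them, and Lin28a, listed there under its older symbol Lin28, was matched by its gene identifier (ENSMUSG00000050966).

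Myc and Mycn are transcription factors that bind DNA only as partners of Max, and Max also pairs with factors that oppose them, among them Mxi1 and Mga. Lin28a and Lin28b are RNA-binding proteins that block the maturation of let-7, a family of microRNAs that lowers the mRNAs of many growth genes, those of the Lin28 paralogs included. Trim71 is an RNA-binding repressor of the same axis, and its own mRNA is a known let-7 target.

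RNA-seq was done on polyA+ RNA of wild type ES cells and of Prep1-/- ES cells (KO2 line), all of strain C57BL/6 per the labels and grown with leukemia inhibitory factor. Each genotype was 1 line with 1 library, so no difference between them has a replicate check and no test across genotypes was possible. Prep1 is a homeodomain transcription factor encoded by Pknox1. Its binding was mapped by ChIP-seq, with input DNA as control, in 1 wild type library whose strain is given as C57BL/6 while the chromatin protocol names R1 ES cells.

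The libraries held 29596294 reads (wild type) and 25717811 reads (labelled Prep1-/-). These sums of the deposited counts are 4.23 and 3.67 times the number of reads per sample in the study's methods, and the intervals given here rest on the deposited counts. Pknox1, the targeted gene, had 505 and 332 reads, RPKM values (reads scaled to gene length and library size) of 7.85 and 5.78, and a ratio of the library labelled Prep1-/- to wild type (KO/WT) of 0.736, with a 95% interval of 0.638 to 0.846. Because reads of Pknox1 remained, this library is called here only by what its label says. These reads measure RNA alone. At the protein level, blots of cell extracts in the paper showed the sequenced knockout line to lack Prep1. Intervals of KO/WT are exact (Clopper-Pearson) and cover counting error only; they compare 2 libraries, not 2 genotypes. Of all genes, 14254 had finite values and RPKM over 1 in either library, and their median KO/WT was 0.954. The ES cell markers Pou5f1, Sox2 and Nanog were at 323, 101 and 66.4 RPKM in wild type cells, and at 359, 134 and 91.0 RPKM in the other library, so the labelled cell type had its defining transcripts in both. In bulk libraries of this kind, fewer cells of a type and less RNA per cell cannot be told apart.

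All 8 genes were expressed over 1 RPKM in both libraries, and none passed the filters used for a down-regulated gene (wild type RPKM over 1 and KO/WT below 0.7) or for an up-regulated gene (RPKM over 1 in the library labelled Prep1-/- and KO/WT above 1.5). Among all 14254 genes, 13.3% passed the first filter and 6.91% the second. The 95% interval of no gene among the 8 reached 0.7 or 1.5. The ratios ran from 0.946 for Lin28b to 1.37 for Mycn, and Mycn and Trim71 stood above the other 6.

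Lin28a had the highest level of the 8 genes and Mxi1 the lowest, and the order of the RPKM values was the same in both libraries: Lin28a, Mycn, Myc, Max, Trim71, Mga, Lin28b and Mxi1. In the wild type library the exact Poisson intervals of neighbouring genes in this order did not overlap. In the library labelled Prep1-/- those of Lin28b (4.42 to 4.96 RPKM) and Mxi1 (3.91 to 4.57 RPKM) did. Lin28a exceeded Mycn by 1.47 times in wild type cells, and by 1.10 times in the other library. With 1 library per genotype, the spread between cultures behind these levels is not known. The order between genes also rests on the gene lengths used for RPKM, which these intervals do not cover. By reads, Mga (11316 in wild type) was above Mycn (6805).

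**Figure D1:**
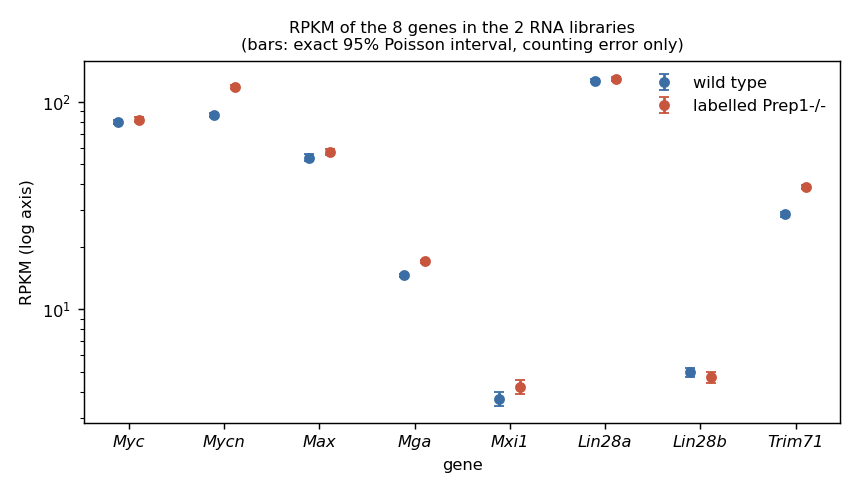
RPKM (log axis) of the 8 genes in the wild type library (blue) and the library labelled Prep1-/- (red), with exact 95% Poisson intervals that cover counting error only. Mycn was at 86.2 and 118 RPKM and Trim71 at 28.7 and 38.9 RPKM, while Myc (80.1 and 82.0 RPKM) and Lin28a (127 and 129 RPKM) had close levels in both libraries.

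Of the DNA-binding activators, Mycn showed the higher ratio and Myc stayed near 1. Mycn (ENSMUSG00000037169, mm9 chromosome 12, minus strand, 12942902 to 12948720), the paralog first known from neuroblastoma, had 6805 reads in wild type RNA and 8308 in RNA of the library labelled Prep1-/-. Its level was 86.2 RPKM in the former and 118 RPKM in the latter, a KO/WT of 1.37 (95% interval 1.32 to 1.41). This ratio was above that of 90.7% of the expressed genes, and above that of 96.3% of the 8045 expressed genes with at least 1000 reads.

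Myc (ENSMUSG00000022346, chromosome 15, plus strand, 61816946 to 61821929), a driver of growth and proliferation, had 5817 and 5327 reads. The levels of 80.1 RPKM (wild type) and 82.0 RPKM gave a KO/WT of 1.02 (0.986 to 1.06), an interval that included 1. Mycn and Myc were thus close to each other in the wild type library, where Mycn had 1.08 times the RPKM of Myc, and further apart in the library labelled Prep1-/-, where it had 1.44 times. The ratio of these ratios was 1.33, with an exact conditional 95% interval of 1.27 to 1.40, and it does not depend on how the libraries were scaled. Mycl1, the remaining paralog, was at 6.65 and 5.61 RPKM. Mycn made up 49.9% of the RPKM summed over Myc, Mycn and Mycl1 in wild type cells and 57.3% in the library labelled Prep1-/-, whereas Myc made up 46.3% and 39.9%.

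Max (ENSMUSG00000059436, chromosome 12, minus strand, 78038256 to 78063235), the obligate partner of the Myc factors, had 2898 and 2760 reads. Its levels of 53.8 and 57.3 RPKM gave a KO/WT of 1.07 (1.01 to 1.12). Relative to the summed RPKM of Myc, Mycn and Mycl1, Max was at 0.311 in wild type cells, and at 0.279 in the other library. Against Max, Mycn was 1.28 times higher in the library labelled Prep1-/- than in wild type (1.21 to 1.36), while for Myc the same comparison gave 0.962 (0.901 to 1.03).

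Both Max partners of the opposing kind had ratios above 1. Mga (ENSMUSG00000033943, chromosome 2, plus strand, 119722964 to 119795317), a very long protein with a T-box and a Myc-like domain that joins Max in a Polycomb-type repressor complex, had 11316 and 11841 reads. Its levels were 14.6 and 17.0 RPKM, a KO/WT of 1.17 (1.14 to 1.20). Mxi1 (ENSMUSG00000025025, chromosome 19, plus strand, 53384996 to 53450300), a Max partner that recruits the Sin3 corepressor, had 625 and 642 reads. Its levels of 3.69 and 4.23 RPKM gave a KO/WT of 1.15 (1.03 to 1.28), the widest interval relative to its ratio among the 8 genes, since Mxi1 had the fewest reads.

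The paralogs Lin28a and Lin28b lay far apart in level and close in ratio. Lin28a (chromosome 4, minus strand, 133559245 to 133574756) had 11960 and 10886 reads and levels of 127 and 129 RPKM, a KO/WT of 1.02 (0.992 to 1.05). Lin28b (ENSMUSG00000063804, chromosome 10, minus strand, 45096426 to 45206201) had 1406 and 1189 reads and levels of 4.96 and 4.69 RPKM, a KO/WT of 0.946 (0.875 to 1.02). The intervals of both included 1. Lin28a made up 96.2% of the summed RPKM of the pair in wild type cells, and 96.5% in the other library. These shares rest on the gene lengths used for RPKM. In RPKM, Lin28b was at 0.0391 times Lin28a in wild type and 0.0363 times in the other library. In reads it was at 0.118 and 0.109 times. The ratio of Lin28b to Lin28a in the library labelled Prep1-/- was 0.929 times that in wild type, with an exact conditional interval of 0.856 to 1.01.

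Trim71 (ENSMUSG00000079259, chromosome 9, minus strand, 114420393 to 114473487), also known as Lin41, had 4637 wild type reads, and 5629 reads came from the library labelled Prep1-/-. Its level was 28.7 RPKM in the former and 38.9 RPKM in the latter. The KO/WT of 1.36 (1.31 to 1.41) was above that of 90.5% of the expressed genes and of 96.2% of those with at least 1000 reads. Mycn and Trim71 had nearly equal ratios, and their intervals overlapped.

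Taking the 8 genes as a list, 7 ratios were above 1 and 1 was below, where 41.4% of all expressed genes were above 1. With the median of each chromosome set to 0 on the log2 scale all 8 were above 1, Lin28b by 0.04. That setting also moved the median log2 of all expressed genes from -0.07 to -0.0019. Their share above 1 was not computed there. Without it, the interval lay wholly above 1 for 5 of the 8 (Mycn, Max, Mga, Mxi1 and Trim71), beside 20.7% of all expressed genes. Whether an interval excludes 1 depends on the reads of a gene. Each of the 8 had at least 625 reads in a library, whereas 8045 of the 14254 expressed genes had 1000 or more in both together. All such shares given here are over genes of any depth, and none was computed at like depth. Under each of the 3 other scalings of the libraries it did so for 7, Myc and Lin28a being added, beside 24.9% to 28.1% of all expressed genes. With the counts scaled down to the depth in the study's methods it did so for 3 (Mycn, Mga and Trim71), beside 11.3% of all expressed genes, and those of Max (0.959 to 1.18) and Mxi1 (0.917 to 1.44) then included 1. At the deposited depth it lay wholly below 1 for none, beside 36.3% of all expressed genes. The median KO/WT of the 8 genes was 1.11 (median log2 0.15), against 0.954 (log2 -0.07) over all expressed genes. Among the genes with at least 1000 reads the quartiles of KO/WT were 0.846 and 1.07, a range that held Myc, Max, Lin28a and Lin28b, and 10% had one above 1.20.

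**Figure D2:**
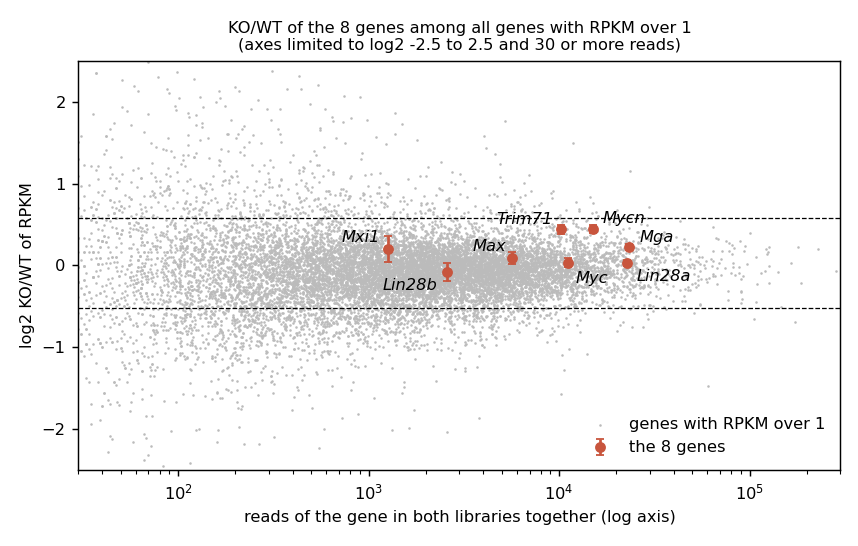
Log2 KO/WT of RPKM against the reads of a gene in both libraries together (log axis), for genes with RPKM over 1 in either library (grey) and the 8 genes (red, 95% exact intervals), with dashed lines at ratios of 0.7 and 1.5. All 8 red points lie between the dashed lines, and Mycn (0.45) and Trim71 (0.44) are the highest of them.

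The genes of the Max network outside the 8 did not share one direction. Of these 8 further genes, 2 passed the filter for down-regulated genes and none the other, beside 13.3% and 6.91% of all expressed genes. Their median KO/WT was 0.874. Mxd4, a Max-binding antagonist, had 202 and 105 reads and levels of 4.31 and 2.51 RPKM, a KO/WT of 0.584 (0.455 to 0.739). Mlxipl, which encodes the glucose-responsive factor ChREBP, had 380 and 197 reads and levels of 4.04 and 2.35 RPKM, a KO/WT of 0.581 (0.486 to 0.690). Mnt, the antagonist with the highest RPKM, was at 30.6 and 37.4 RPKM, a KO/WT of 1.22 (1.17 to 1.27). Mxd1 (0.954) and Mxd3 (0.905) had KO/WT intervals that included 1, Mlx was at 1.08, and Mlxip (0.755) and Mycl1 (0.844) had intervals below 1. Summed over Mxi1, Mxd1, Mxd3, Mxd4, Mnt and Mga, the Max-bound antagonists were at 69.6 RPKM in wild type cells, and at 76.1 RPKM in the other library, 0.402 and 0.371 times the sum of Myc, Mycn and Mycl1.

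Cofactors of Myc and of its Max-bound opponents had a median KO/WT of 1.02 over 10 genes. The one that passed a filter was Sin3b, a scaffold of the corepressor that Mxd-type factors recruit, with 69.2 RPKM in wild type and 45.6 RPKM in the library labelled Prep1-/-, so that KO/WT was 0.659 (0.631 to 0.688). Ruvbl2, an ATPase of chromatin complexes and the cofactor with the highest level, was at 237 and 221 RPKM (0.934).

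Of the 11 genes of the Mga-Max repressor complex, 8 had a ratio above 1, the median was 1.14, and none passed a filter. The highest ratio was that of E2f6 (1.24, interval 1.10 to 1.41), a DNA-binding subunit, and the lowest that of Yaf2 (0.809, interval 0.729 to 0.898), an accessory subunit. Hdac1, a histone deacetylase with the highest level of the list, was at 56.1 and 62.2 RPKM.

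Genes that control the stability of the Myc protein had a median KO/WT of 0.953 over 10 genes. Usp28, a deubiquitinase that protects Myc from the ubiquitin ligase Fbxw7, was the only one past a filter, with 2592 and 3695 reads and levels of 16.5 and 26.3 RPKM, a KO/WT of 1.59 (1.52 to 1.68). Fbxw7 itself was at 7.75 and 8.01 RPKM (1.03).

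Textbook target genes of Myc, 30 in all, stayed within both thresholds, with a median KO/WT of 1.04 and a range of 0.757 to 1.41. The interval lay wholly above 1 for 14 of the 30, beside 20.7% of all expressed genes, and wholly below 1 for 7, beside 36.3%. Cdk4, a cell cycle kinase with the highest level, was at 627 and 513 RPKM (0.817). Cdc25a, a cell cycle phosphatase, had the lowest ratio (26.0 and 19.6 RPKM), and Hspd1, a mitochondrial chaperone, the highest (9.13 and 12.8 RPKM, from 182 and 229 reads). Hspd1 has near-identical copies in the genome, so the assignment of its reads is uncertain.

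The 11 genes that process let-7 or degrade it had a median KO/WT of 1.01 and none passed a filter. Drosha, the nuclease that cuts the primary microRNA, had the highest level (122 and 135 RPKM). Zcchc11, one of the enzymes that tag the let-7 precursor held by Lin28a, had the lowest ratio (0.851, interval 0.814 to 0.889), and Tarbp2, a Dicer partner, the highest (1.17, interval 0.956 to 1.43). Hairpin genes of let-7 were listed in 7 rows, of which 3 had any read and none more than 5 in a library. The polyA+ protocol does not capture mature microRNAs, so let-7 itself was not measured.

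The let-7 family is shown here because Lin28a, Lin28b and Trim71 carry matches to its seed. The mature sequences (RefSeq, GRCm38.p6 table) of 3 of the 9 members that share this seed are given 5′ to 3′, with bases 2 to 8 in capitals.
mmu-let-7a-5p: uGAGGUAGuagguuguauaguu
mmu-let-7g-5p: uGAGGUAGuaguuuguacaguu
mmu-miR-98-5p: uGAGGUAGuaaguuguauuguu

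The complement of this seed, CTACCTC, was searched on the sense strand of the longest annotated 3′ UTR of each gene (GENCODE M1). It occurred in 9.65% of 17282 genes, whose median 3′ UTR was 1016 bases long. Lin28b held 4 matches in 4445 bases, Lin28a 2 in 2775 bases and Trim71 2 in 1370 bases. Myc (466 bases), Mycn (910), Max (1299), Mga (4616) and Mxi1 (4074) held none in these models. The sites of Lin28a, those of Trim71 and the first of Lin28b are followed by an A, the form of the match with the strongest known repression, and are printed with the match in capitals and the position of its first base in the 3′ UTR. A match is a description of the sequence, not of let-7 binding.
Lin28a, position 909: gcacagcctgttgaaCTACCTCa
Lin28a, position 1547: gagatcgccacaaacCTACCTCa
Lin28b, position 36: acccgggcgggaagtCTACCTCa
Trim71, position 166: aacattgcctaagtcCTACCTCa
Trim71, position 262: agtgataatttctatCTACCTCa

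The 3 genes with seed matches did not share a ratio, with Trim71 at 1.36, Lin28a at 1.02 and Lin28b at 0.946. Of the 20 other let-7 target genes listed, 3 passed the filter for down-regulated genes and none the other. Among all expressed genes 13.3% and 6.91% did. The median KO/WT of the 20 was 0.937. Arid3a, a DNA-binding factor, was at 11.5 and 6.97 RPKM (0.604, interval 0.574 to 0.635). Hmga2, an architectural chromatin protein of growing cells, had 202 and 122 reads and levels of 6.96 and 4.71 RPKM (0.678, interval 0.535 to 0.850). Plag1, a zinc finger factor, had 153 and 82 reads (0.603, interval 0.453 to 0.789). Cdc34, a ubiquitin-conjugating enzyme with the highest level of the list, was at 153 and 124 RPKM (0.810).

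Known targets of Trim71, whose mRNAs it represses, gave 5 measured genes and none past a filter, with a median KO/WT of 0.868. Cdkn1a, a cell cycle inhibitor and the target with the highest level, was at 97.3 and 81.6 RPKM (0.839, interval 0.812 to 0.866). Rbl2, a retinoblastoma family member, had the lowest ratio (0.815, interval 0.674 to 0.981), and Egr1, an immediate early factor, the highest (1.11, interval 1.05 to 1.17). Over all 105 related genes, 5.71% were below 0.7 and 0.952% above 1.5, both under the shares of all expressed genes.

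**Figure D3:**
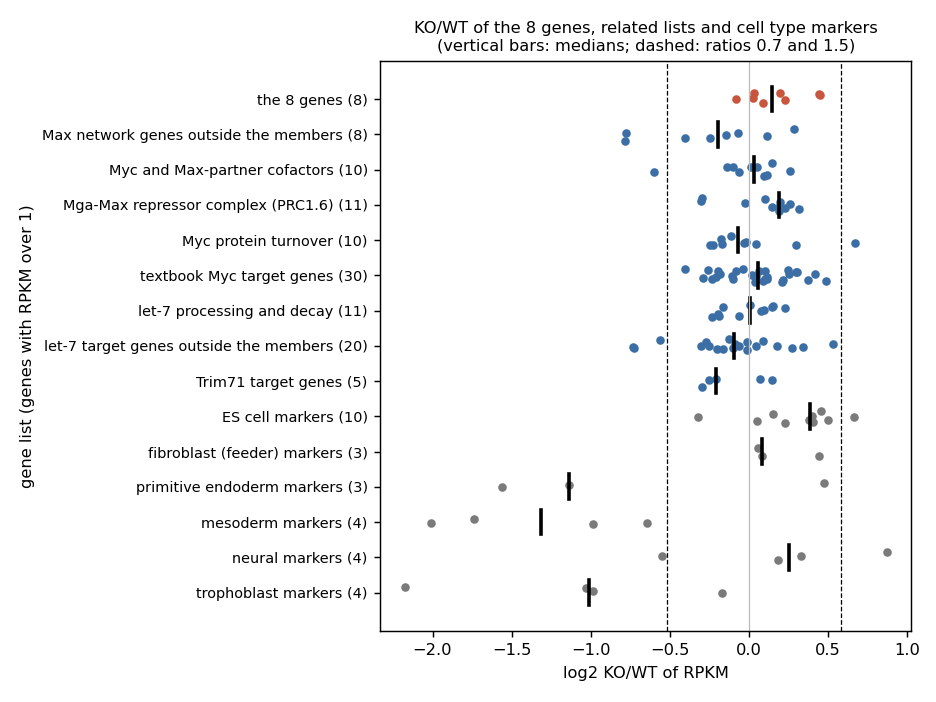
Log2 KO/WT of RPKM for the 8 genes (red), related gene lists (blue) and cell type markers (grey), restricted to genes with RPKM over 1 in either library, with the number of genes in parentheses, medians as vertical bars and dashed lines at ratios of 0.7 and 1.5. The medians of the related lists lie between 0.868 and 1.14 as ratios, the mesoderm (0.402), primitive endoderm (0.456) and trophoblast (0.497) markers lie lower, the ES cell (1.31) and neural (1.19) markers higher, and the fibroblast markers (1.06) within that range.

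Markers of the ES cell state and of other cell types differed between the libraries beside these ratios. Of the 10 ES cell markers, 9 had a KO/WT interval wholly above 1, beside 20.7% of all expressed genes, and Zfp42 was at 0.801 (0.684 to 0.934). The summed level of the 10 was 1988 RPKM in wild type cells, and 2292 RPKM in the other library. Nanog (1.37) and Sox2 (1.32) had ratios near those of Mycn and Trim71, and Klf4 (1.58) was above 1.5. Among all expressed genes, 13.3% were below 0.7 and 6.91% above 1.5. The 5 mesoderm markers summed to 29.3 and 9.18 RPKM, and all 4 of them that were expressed were below 0.7. The trophoblast markers summed to 93.2 and 61.2 RPKM (3 of 4 expressed genes below 0.7, Eomes being in both lists). The 6 primitive endoderm markers summed to 7.75 and 4.27 RPKM, of which Gata4 made up 4.61 and 1.56 RPKM. Of their 3 expressed genes 2 were below 0.7, while Sox7 was at 1.39 (1.085 to 1.785). The neural markers summed to 25.9 and 20.2 RPKM (1 of 4 expressed genes below 0.7 and 1 above 1.5). The 6 fibroblast markers, which could come from feeder cells, summed to 24.1 and 29.8 RPKM (none past a filter), and Lum had 0 reads in the wild type library. The part of these cell states in the ratios of Mycn, Trim71 and the other genes was not tested.

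Prep1 peaks were assigned to a gene where they overlapped the region from 500 bp before to 100 bp after its start site, its body, or the 20 kb on either side of the start. Of the 8 genes, Trim71 and Myc had such a peak (2 of 8), a share close to the 26.1% of the 13650 expressed and annotated genes. None of the 8 had a peak at the start site, and 1 (Trim71) had an intragenic one, beside 16.5% of genes with a start-site or intragenic peak. The values of the peaks are the fold enrichment over input DNA, as rounded by the authors, and 1 ChIP library gives no replicate check.

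Trim71 held 2 peaks. The stronger one, at chr9:114465406-114466190 (mm9, 785 bp), lay within the first intron, its centre 7.69 kb downstream of the start site, with a fold enrichment of 36 that exceeded that of 66.4% of the 3902 peaks. The other, at chr9:114424374-114424957 (584 bp), lay 48.8 kb downstream and overlapped a coding exon, with a fold enrichment of 8 that exceeded that of 1.33% of peaks. The peak near Myc, at chr15:61810310-61810938 (629 bp), was centred 6.32 kb upstream of the start site, outside any exon of Myc. Its fold enrichment of 11 exceeded that of 11.6% of peaks, and the median over all peaks was 21.

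The sequence under these peaks is given to show which of them held the core of the Prep1 recognition sequence, TGANTGAC, searched on both strands. Of the 3902 peaks, 43.7% held this core. The weaker Trim71 peak held 1 match, at chr9:114424683-114424690, 18 bp from the peak centre on the plus strand, while the stronger Trim71 peak and the Myc peak held none. The Meis-type octamer TGATTNAT (8.41% of peaks) and the E-box CACGTG bound by Myc-Max pairs (13.4% of peaks) had no match in any of the 3. The absence of a match says only that these letters are not in these windows. It does not show that a peak lacks a Prep1 site. The site that the paper tested by ChIP at Fgf4 does not match this core, and its consensus was reported in a larger share of the peaks. On the minus strand, the stretch printed for the stronger Trim71 peak holds the start of that Fgf4 site, but not its last bases. Stretches of 200 bases of the plus strand (mm9) are printed, around the match or, without one, around the peak centre, with the core in capitals.
Trim71, weaker peak, chr9:114424587-114424786: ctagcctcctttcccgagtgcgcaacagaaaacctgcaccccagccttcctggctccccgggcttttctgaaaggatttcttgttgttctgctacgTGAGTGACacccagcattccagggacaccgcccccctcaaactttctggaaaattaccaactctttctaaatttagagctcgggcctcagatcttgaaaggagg
Trim71, stronger peak, chr9:114465698-114465897: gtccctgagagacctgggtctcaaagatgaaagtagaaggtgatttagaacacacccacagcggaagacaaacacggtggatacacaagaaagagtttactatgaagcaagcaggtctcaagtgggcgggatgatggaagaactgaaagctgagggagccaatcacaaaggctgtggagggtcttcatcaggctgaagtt
Myc, chr15:61810524-61810723: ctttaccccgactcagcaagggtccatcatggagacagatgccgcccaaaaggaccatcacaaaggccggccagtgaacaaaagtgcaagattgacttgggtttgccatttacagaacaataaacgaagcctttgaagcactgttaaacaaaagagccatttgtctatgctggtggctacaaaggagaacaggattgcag

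The 6 genes without a peak in reach differed widely in the distance to the nearest one. It was 88.5 kb upstream of the start site of Lin28a, 218 kb downstream for Mxi1, 252 kb downstream for Max, 279 kb upstream for Mga, 360 kb downstream for Mycn and 1021 kb downstream for Lin28b. Whether the distances of these nearest peaks relate to KO/WT was not tested. Some of these peaks lay near the start of another gene. The peak nearest to Mxi1 was 0.631 kb from the start of Dusp5, a MAP kinase phosphatase, which had 1826 and 997 reads and a KO/WT of 0.611 (0.565 to 0.660). The peak nearest to Max was 0.411 kb from the start of Spnb1, a spectrin gene with 136 and 56 reads (RPKM 0.491 and 0.229), and that nearest to Mga was 0.0715 kb from the start of Oip5, a centromere gene with a KO/WT of 0.950 (0.841 to 1.07). The peak nearest to Lin28a was 4.80 kb from the start of Ubxd5, whose KO/WT was 1.85 (1.59 to 2.16). Over all expressed genes, the median KO/WT was 0.922 for the 3558 with a peak in reach and 0.960 for the 10092 without.

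**Figure D4:**
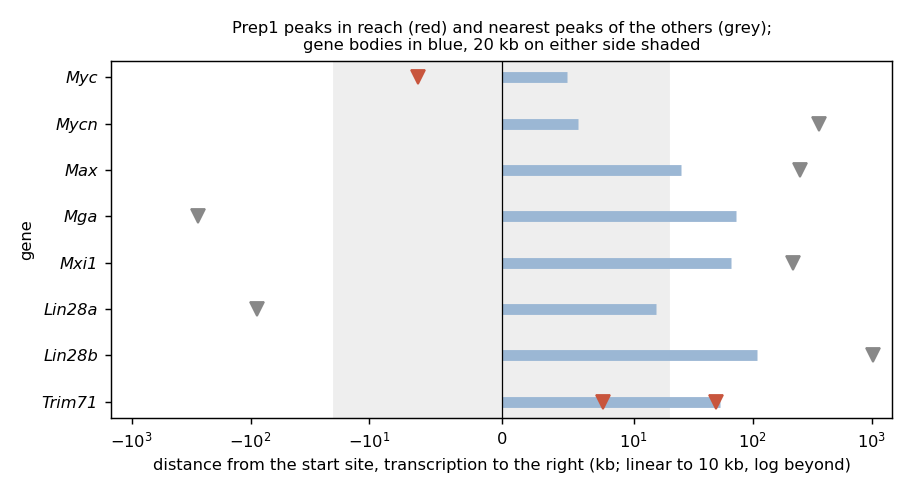
Prep1 peaks (red triangles, in reach; grey triangles, the nearest peak where none was in reach) by distance from the start site of each gene in kb, with transcription to the right, gene bodies in blue and 20 kb on either side shaded; the axis is linear to 10 kb and logarithmic beyond. Myc has a peak 6.32 kb upstream and Trim71 has peaks 7.69 and 48.8 kb downstream, while the other 6 genes have theirs at 88.5 kb or further.

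In the promoters of these genes (RefSeq, GRCm38.p6, from 250 bases before to 50 after the start), the E-box CACGTG occurred once in that of Max and once in that of Lin28b. It was in 7.15% of the 32851 promoters of the table. The promoters of Mycn, Mga, Mxi1, Lin28a and Trim71 held none, and TGANTGAC, present in 4.11% of all promoters, occurred in none of the 7 genes found there.

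The genes around Mycn and Trim71 did not have ratios as high as theirs. Trim71 had 9 expressed genes with a start within 500 kb, whose KO/WT ran from 0.755 to 1.15 with a median of 1.02, all below Trim71. Mycn had 2, Ddx1 (0.969) and CT025539.18 (1.03), both more than 300 kb upstream. For Myc the 2 neighbours, AC126552.5 and AC133090.4, were at 0.765 and 0.798, below the 1.02 of Myc. On the log2 scale Mycn and Trim71 each stood 0.52 above the median of their chromosome, while Lin28b stood 0.04 above its own.

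Around the other genes, some neighbours passed a filter where the gene itself did not. Rab15, a vesicle traffic GTPase 139 kb downstream of Max, was at 20.9 and 11.2 RPKM (0.533), and Itpka, an inositol kinase 155 kb upstream of Mga, at 1.90 and 4.23 RPKM (2.22, from 89 and 178 reads). Near Mxi1, AC123702.11 (0.247, from 76 and 16 reads) and Dusp5 were below 0.7, and near Lin28b so was Bves (0.461, from 79 and 32 reads), a cell adhesion gene. Lin28a, with 25 expressed neighbours, had 4 below 0.7, namely Extl1 (0.633), Slc30a2 (0.573), Cnksr1 (0.478) and Sfn (0.544), and Ubxd5 (1.85) above 1.5. In all, 12.3% of the 65 neighbours were below 0.7 and 3.08% above 1.5, beside 13.3% and 6.91% of all expressed genes.

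**Figure D5:**
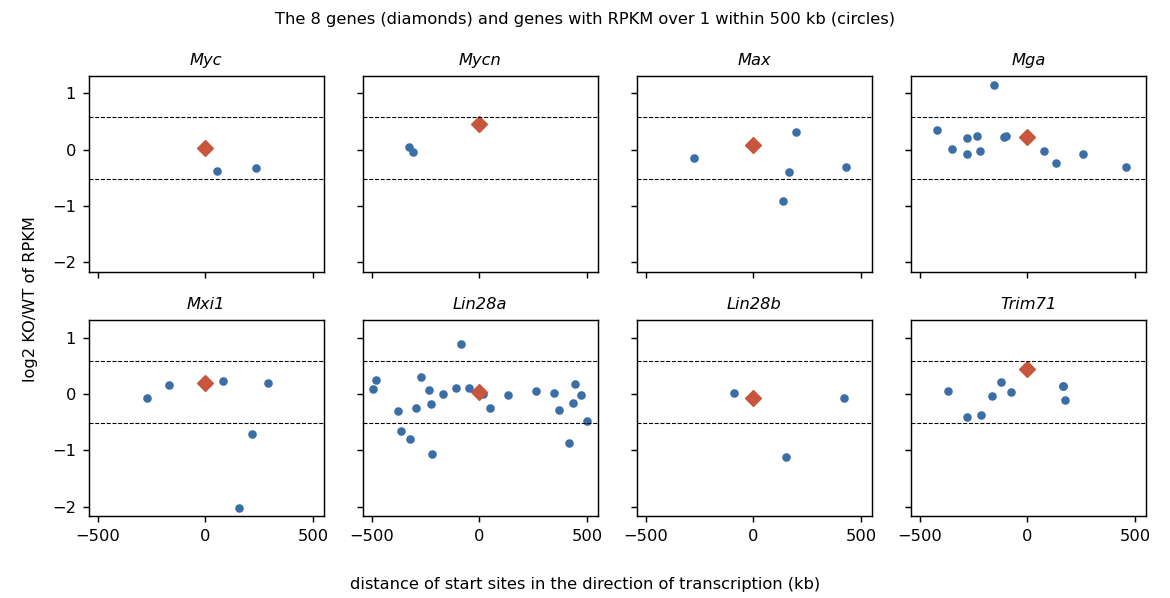
Log2 KO/WT of RPKM for each of the 8 genes (red diamonds) and the expressed genes with a start within 500 kb (blue circles), by the distance of the start sites in the direction of transcription, with dashed lines at ratios of 0.7 and 1.5. Mycn, Trim71 and Myc lie above all of their neighbours, and the 25 genes around Lin28a spread from 0.478 to 1.85 as ratios.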

How the data were processed

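ES cells labelled wild type and Prep1-/- (1 RNA library each) and Prep1 ChIP (1 library, with input DNA) were measured. The authors deposited a read count per gene, a whole number without normalization, from paired-end reads of 50 bp assigned with RSEM to Ensembl 63 genes on mm9 and analysed with DESeq. The authors also deposited RPKM, which was proportional to the count plus 1, and was Inf for 85 genes. The score of the deposited peaks, called with MACS from BWA alignments of 36 bp reads against input DNA, was the rounded fold enrichment. RSEM, DESeq, BWA, MACS and mm9 are named in the submitters' processing notes; versions are not given in the sources used here. The study describes the transcripts as from the sense strand. GENCODE M1 has an antisense gene over Lin28a and another gene over Mxi1.

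KO/WT is the ratio of deposited RPKM without a pseudocount. The tests were planned for RPKM; the counts served for exact 95% intervals (KO share of reads, scaled by 1.12), for Poisson intervals of levels and for odds ratios. They cover counting error only, and reads are not independent molecules. With 1 library per genotype no count test was run and no p-value is given. Total counts were 29596294 and 25717811; the 8 genes had 625 to 11960 reads in a library. Coordinates are on NCBIM37 (mm9) with GENCODE M1, which held 21446 of the 22718 genes. Peak positions were taken as 1-based.

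The 8 genes, the gene lists and the rules were chosen with earlier results of these data known. Named were the 8 genes, Pknox1, list genes past a filter or else the lowest and highest KO/WT (at least 20 reads), the gene with the highest wild type RPKM of a list, and neighbours past a filter. A gene that this rule names is not reported here. All Max network genes, Fbxw7, Ddx1 and the other neighbours of Myc and Mycn, Oip5 and Spnb1 were named outside this rule, after their values were seen. So were the markers Pou5f1, Sox2, Nanog, Zfp42, Sox7 and Lum. On Poisson counts simulated for 22718 genes, the ratio thresholds recovered 100 of 100 genes lowered 0.5-fold and 100 of 100 raised 2-fold. Of the intervals, 95.3% covered the true ratio. Both were scored only on genes with at least 200 reads together and RPKM over 1 in both libraries. The simulation held counting error alone, so it checks the code and says nothing about the spread between cultures. Software was scipy 1.17.1, numpy 2.4.6 and pandas 2.3.3 under Python 3.11.15, with figures from matplotlib 3.10.9. Alternatives were other scalings, pseudocounts, RPKM filters, thresholds and peak distances.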

Additional observations from a re-analysis of the deposited data

How the results depend on the processing

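None of the 8 genes passed either filter under any of 12 alternative settings. Over 6 alternative scalings and pseudocounts, KO/WT ran from 1.36 to 1.44 for Mycn, 1.35 to 1.44 for Trim71, 1.16 to 1.25 for Mga, 1.12 to 1.22 for Mxi1, 1.06 to 1.12 for Max, 1.02 to 1.10 for Myc, 1.02 to 1.08 for Lin28a and 0.947 to 1.02 for Lin28b, which crossed 1 with chromosome medians set to 0. The median log2 of the 8 genes stayed between 0.12 and 0.23. The counts of genes with a ratio or an interval above 1 under other scalings and at the lower depth in the study's methods, where the interval lay above 1 for 3 of the 8 and not 5, were added after seeing the data. Of the 105 related genes, 1 was above the threshold, beside 985 of all genes. The count was 2 with the median ratio set to 1, with upper-quartile scaling and with chromosome medians set to 0 (1147, 1171 and 1067 of all genes). With thresholds of 0.5 and 2 it was 0 (484 of all genes). The 6 below the threshold became 0 with thresholds of 0.5 and 2, where the count among all genes went from 1899 to 454. They became 3 where the interval also had to pass (661 of all genes). With a pseudocount of 1 RPKM and with chromosome medians set to 0 they became 4 (1207 and 1525 of all genes). Genes of the 8 with a Prep1 peak fell from 2 to 1 (Trim71) with a distance of 5 kb, where the share of all genes fell from 26.1% to 18.5%. They also fell to 1 (Trim71) with peaks above the median score, where 15.5% of genes had one. Within 100 kb they numbered 3 (Lin28a added), where 53.0% of genes had one. No paired analysis was possible because each genotype has 1 library. For the same reason no replicate could be left out. Depth limits genes such as Mxi1, whose interval is widest.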
